A study of Mus musculus with 12 samples.

Results

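The 10 genes described here are 4 developmental pluripotency-associated genes, Dppa2, Dppa3, Dppa4 and Dppa5a, and 6 germline genes, Dazl, Mael, Tex19.1, Sycp3, Hormad1 and Tdrd12. They were chosen by name as genes that usually gain DNA methylation when cells leave the naive pluripotent state, and all 10 were found among the 51467 genes counted. The rule names genes and uses no measured value, but the genes were picked with earlier results of these data known. DNA methylation itself was not measured here. Transcription and mRNA levels were measured in mouse embryonic stem cells (ESCs) kept naive in serum medium with LIF and 2i (the inhibitors PD0325901 and CHIR99021), and in epiblast-like cells (EpiLCs) collected about 56 hours after LIF and 2i were taken away. Both cell types received 500 µM 4-thiouridine (4sU) for 30 minutes, so the controls carried the label too. From each cell type there were 3 libraries of labelled, newly made RNA (4sU) and 3 of total RNA depleted of ribosomal RNA, 12 in all. The study worked with a line carrying miR-302 and miR-290 fluorescent reporters, and the cultures are a model of the step from the epiblast before implantation to the one after it.

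Germline genes are silenced in the embryo shortly after implantation, when new DNA methylation is laid down. Many of them have CpG-rich promoters with binding sites for the repressive complex PRC1.6, which reads an E-box through MGA and MAX and an E2F site through E2F6. In naive ESCs methylation is low, and a number of these genes are transcribed outside the germline. DPPA2 and DPPA4 are small chromatin-binding proteins that act together at CpG-rich promoters, DPPA3 (also called STELLA) protects methylation of the maternal genome in the zygote, and DPPA5A is an RNA-binding protein of pluripotent cells.

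A promoter window from 250 bases before to 50 bases after the start was listed in RefSeq (GRCm38.p6) for 6 of the 10 genes, Dazl, Mael, Tex19.1, Sycp3, Hormad1 and Tdrd12. Searching both strands for the E-box CACGTG and for the E2F motif GCGGGA found the E-box in 3 of these 6 windows and the E2F motif in 4. Among all 27025 windows of the same length, 7.24% held the E-box, 20.02% the E2F motif and 2.05% both. Mael, Sycp3 and Hormad1 held both motifs, Tex19.1 held only the E2F motif, and these letters did not occur in the Dazl and Tdrd12 windows. The stretches of 30 bases around the matches that lie wholly before the start are printed because the genes that share them changed in opposite directions. They are written 5′ to 3′ on the gene's own strand with the motif in capitals, and TCCCGC is the E2F motif read from the other strand.
Hormad1 E-box, chr3:95559608-95559637, plus strand: caaagggtgcgcCACGTGccagtgacagtt
Hormad1 E-box nearer the start, chr3:95559645-95559674, plus strand: atgcgcactgcgCACGTGctgaccggagcg
Hormad1 E2F, chr3:95559570-95559599, plus strand: gcgcagcttttgGCGGGAatagtggtctgg
Sycp3 E-box, chr10:88459511-88459540, plus strand: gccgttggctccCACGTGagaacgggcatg
Sycp3 E-box nearer the start, chr10:88459532-88459561, plus strand: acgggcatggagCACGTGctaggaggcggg
Sycp3 E2F, chr10:88459428-88459457, plus strand: aaggaaggaacaGCGGGAaagtgctgcttc
Mael E-box, chr1:166238950-166238979, minus strand: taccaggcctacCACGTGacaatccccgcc
Mael E2F, chr1:166238870-166238899, minus strand: gctcctcctcccTCCCGCcccctccgcccc
Tex19.1 E2F, chr11:121146098-121146127, plus strand: agctggagcatcGCGGGActtggcccttta

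Hormad1 and Sycp3 each held 2 E-boxes, which 0.625% of all windows did. CpG was dense in the Dazl window, with 28 CpGs and an observed-to-expected ratio of 0.80, followed by Mael (24 CpGs, 0.78), Hormad1 (24, 0.71), Sycp3 (15, 0.67), Tex19.1 (16, 0.58) and Tdrd12 (11, 0.41). All 6 were above the medians of all windows, 7 CpGs and a ratio of 0.39. A match describes letters in these windows, and binding was not measured.

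Across the series, libraries held 3097693 to 5385644 assigned reads for 4sU RNA and 9300845 to 21975684 for total RNA. The ESC replicate 3 libraries stood apart from the other ESC libraries of both assays on principal component 3, at -41.97 and -24.64 where the other 4 lay between 9.92 and 24.80, so values that rest on them are also given without them. The 10 naive markers fixed for the check were all lower in EpiLCs, and 5 of 6 formative and primed markers were higher. For cells of other types, the 10 fibroblast markers summed to 10.7 to 17.9 CPM (counts scaled to the library) in ESC and 16.1 to 21.1 in EpiLC total libraries, with 2 of the 4 tested called higher (Col1a2 and Dcn) and 1 lower (Pdgfrb). Dcn had no read in ESCs but 40 to 56 reads in each EpiLC total library. Of the untested fibroblast markers, reads a total library in ESCs and EpiLCs were 8 to 10 and 13 to 28 for Col1a1. They were 0 to 1 and 3 to 8 for Col3a1, 0 to 1 and 3 to 13 for Twist2, and 12 to 38 and 2 to 5 for Col6a3. Lum and Postn had at most 1 read in a total library. The 7 primitive endoderm markers summed to 4.56 to 11.1 and 17.8 to 20.5 CPM, with 2 of the 4 tested called higher and 1 lower. The part of such cells in the results below was not tested.

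Of the 10 genes, 5 had lower mRNA in EpiLCs, 2 had higher mRNA and 3 did not pass the test. Dppa5a, Dazl, Tex19.1, Hormad1 and Tdrd12 fell by between 2.54-fold and 6.76-fold, whereas Mael and Sycp3 rose 3.75-fold and 2.27-fold. A change was called where limma-voom gave a Benjamini-Hochberg adjusted p below 0.05 over 14731 genes and a change above 1 on the log2 scale. Under that rule 11.2% of all genes tested were called lower and 16.3% higher. The median mRNA change (log2, EpiLC over ESC) was -0.83 over the 10 genes and 0.02 over all genes tested. In nascent RNA, the same 5 genes were called lower and Mael alone higher, where 13.5% of genes tested were called lower and 11.9% higher. The median nascent change was -1.45 over the 10 genes and -0.09 over all. In cultures of this kind, fewer cells expressing a gene and less RNA per cell cannot be told apart.

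All 10 genes passed the filter on low values, and each passed it within each cell type taken alone. The 3 EpiLC total libraries lay wholly below the 3 ESC ones for 5 genes and wholly above for 2, against 35.1% and 33.5% of all genes tested. In 4sU RNA they lay wholly below for 6 genes and above for 1, against 34.1% and 26.6%. The additional gene in 4sU RNA was Dppa4. Leaving out both ESC replicate 3 libraries left the same calls for mRNA and nascent RNA in all 10 genes.

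**Figure D1:**
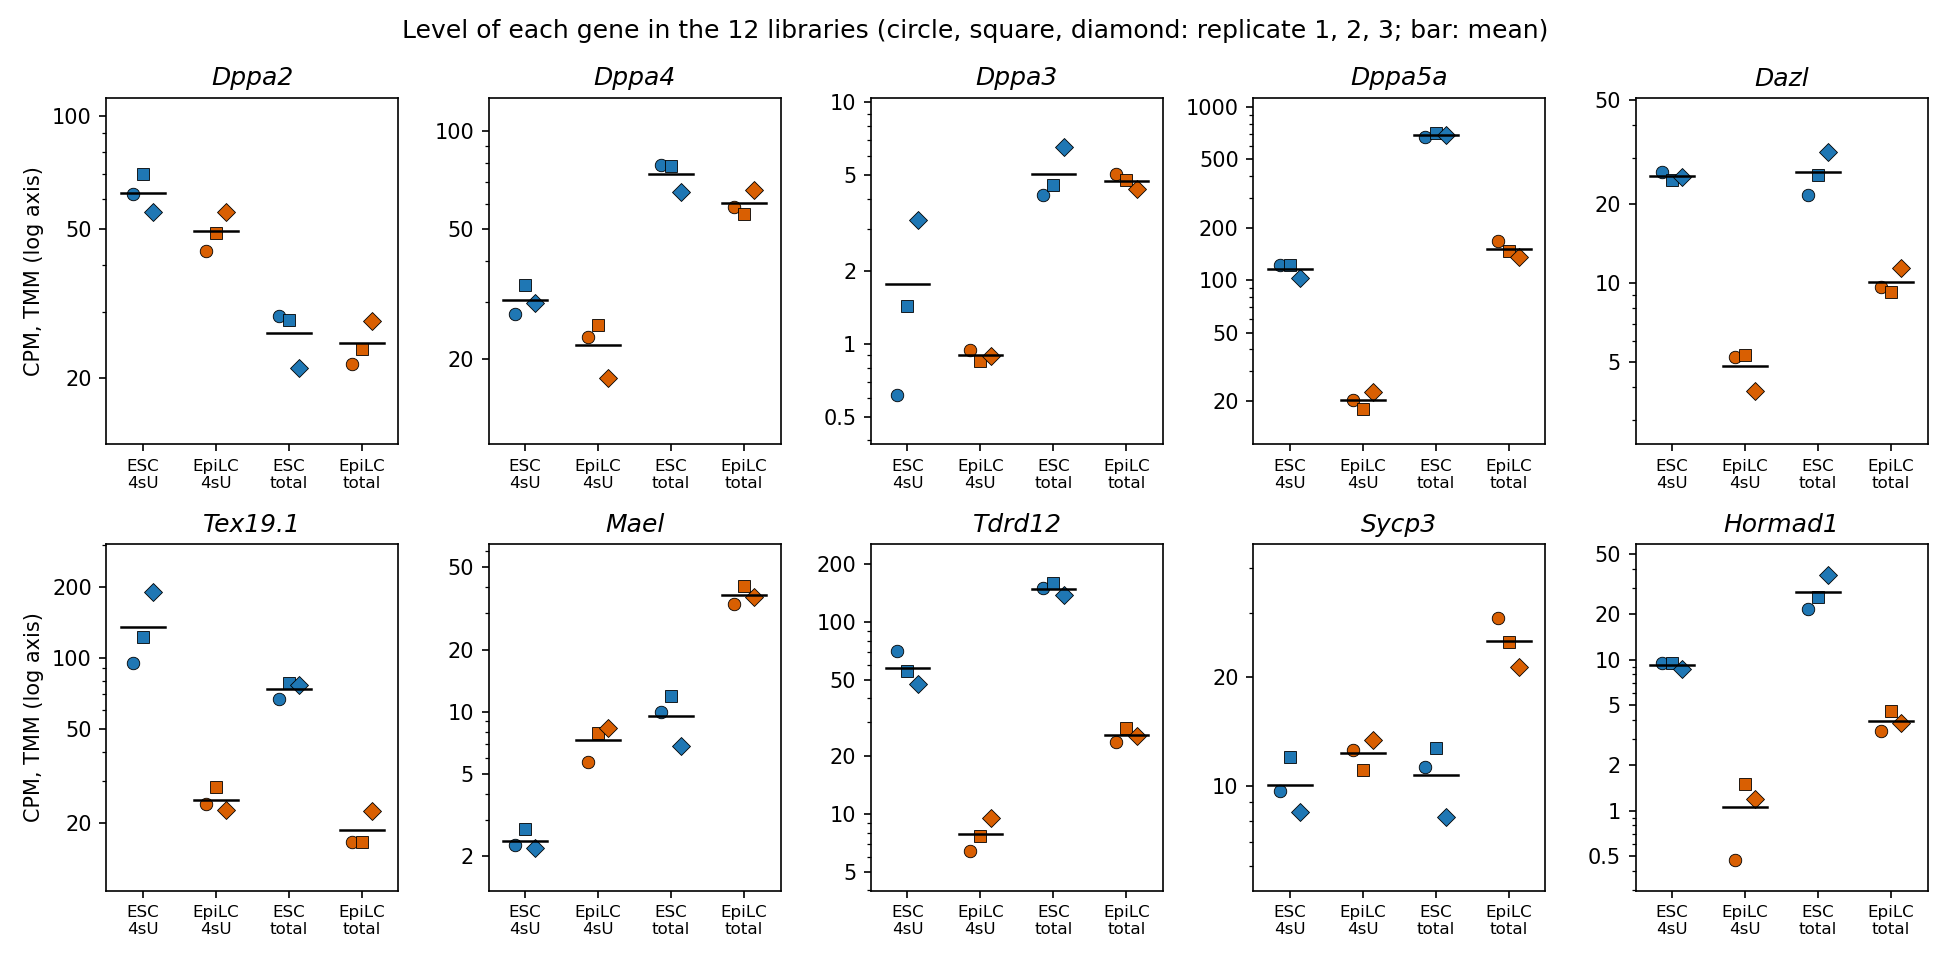
CPM (scaled by the trimmed mean of M-values, log axis) of each gene in the 12 libraries, grouped by cell type and assay. Circles, squares and diamonds are replicates 1, 2 and 3 and bars are means. Total RNA of Dppa5a, Dazl, Tex19.1, Tdrd12 and Hormad1 lies lower in all 3 EpiLC libraries than in all 3 ESC libraries, that of Mael and Sycp3 lies higher, and that of Dppa2, Dppa3 and Dppa4 overlaps.

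Dppa2 and Dppa4 lie next to each other on chromosome 16 in mm10, Dppa4 at 48283735 to 48294292 and Dppa2 at 48310477 to 48319723, 16184 bases apart on the same strand. Neither passed the fold threshold in EpiLCs. Dppa2 total RNA was at 29.2, 28.5 and 21.2 CPM in the ESC libraries and at 21.8, 23.9 and 28.4 CPM in the EpiLC libraries. The groups overlapped, and the change of -0.11 ± 0.14 on the log2 scale (SE, n = 3 a group, limma-voom adjusted p = 0.521) had a 95% interval from -0.41 to 0.19. Dppa4 total RNA was at 78.9, 78.2 and 65.1 CPM in ESCs and at 58.7, 55.8 and 65.9 CPM in EpiLCs. ESC replicate 3 lay among the EpiLC values, and the change was -0.31 ± 0.10 (limma-voom adjusted p = 0.0193; interval -0.53 to -0.08), past the adjusted p but not the fold threshold. In nascent RNA, Dppa2 changed by -0.36 ± 0.15 (limma-voom adjusted p = 0.0557) and Dppa4 by -0.44 ± 0.17 (limma-voom adjusted p = 0.0447). Without both ESC replicate 3 libraries the mRNA change was -0.24 for Dppa2 (limma-voom adjusted p = 0.0488) and -0.40 for Dppa4 (limma-voom adjusted p = 0.000241). The nascent change was then -0.46 for Dppa2 (limma-voom adjusted p = 0.00212) and -0.48 for Dppa4 (limma-voom adjusted p = 0.0149). These were past the adjusted p but not the fold threshold.

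The neighbours differed in how much total RNA stood against newly made RNA. Per length, in RPKM, CPM per kilobase of exon, ESC 4sU libraries held more Dppa2 (32.0 ± 3.71, SD) than Dppa4 (19.8 ± 2.08), while ESC total libraries held less Dppa2 (13.5 ± 2.27) than Dppa4 (48.3 ± 5.06). Relative mRNA stability, the log2 ratio of total to 4sU CPM, was -1.07, -1.28 and -1.36 for Dppa2 in the 3 ESC cultures and -0.99, -1.01 and -0.95 in the 3 EpiLC cultures. For Dppa4 it was 1.502, 1.197 and 1.12 in ESCs and 1.30, 1.11 and 1.88 in EpiLCs. Dppa4 was above Dppa2 in 6 of 6 cultures, by 2.46 ± 0.24 on the log2 scale (SD, n = 6; range 2.12 to 2.83). The comparison was chosen after the values were seen and was not tested.

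Dppa3 lies on chromosome 6 at 122626410 to 122630272. Its total RNA was at 4.13, 4.55 and 6.52 CPM in ESCs and at 5.05, 4.76 and 4.40 CPM in EpiLCs. The groups overlapped and the change was -0.01 ± 0.23 (limma-voom adjusted p = 0.964; 95% interval -0.50 to 0.47), with a sign that depended on the scaling and on single libraries. Newly made Dppa3 RNA rested on 3, 8 and 12 reads in ESCs and 4, 4 and 3 reads in EpiLCs. At this depth a nascent difference was not detectable, and its interval ran from -1.80 to 0.72.

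Dppa5a, on chromosome 9 at 78367052 to 78368177, had the highest level per length of the 10 genes in every group. Its total RNA was at 669, 706 and 695 CPM in ESCs and at 169, 148 and 136 CPM in EpiLCs. The groups lay far apart, and mRNA fell 4.59-fold (-2.20 ± 0.09, limma-voom adjusted p = 5.5e-11). Newly made RNA was at 123, 123 and 103 CPM in ESCs and at 20.4, 18.1 and 22.7 CPM in EpiLCs, a change of -2.53 ± 0.15. Even after this fall, Dppa5a total RNA averaged 244 RPKM in EpiLCs and stood at percentile 98.6 of the genes tested, from 99.7 in ESCs. Its annotated copies Dppa5b and Dppa5c held 0 reads and 1 read over the 12 libraries, and Dppa3-ps held 4. Only reads that align once were counted, so these low counts do not show that the copies are silent.

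Dazl encodes an RNA-binding protein that controls translation in germ cells and lies on chromosome 17 at 50279394 to 50293599. Its newly made RNA was at 26.5, 24.6 and 25.3 CPM in ESCs and at 5.21, 5.33 and 3.88 CPM in EpiLCs. Its total RNA was at 21.7, 25.7 and 31.7 CPM in ESCs and at 9.64, 9.24 and 11.4 CPM in EpiLCs. Both assays separated the cell types completely, but nascent RNA fell 5.16-fold (-2.37 ± 0.28, limma-voom adjusted p = 7.34e-06) and mRNA 2.54-fold (-1.35 ± 0.15, limma-voom adjusted p = 2.1e-06). The difference of these changes, the change in stability, was 1.02 ± 0.32 (interaction, limma-voom adjusted p = 0.078; 95% interval 0.34 to 1.70). It did not pass the test. Without ESC total replicate 3 it was 1.13 (limma-voom adjusted p = 0.00922), and without both ESC replicate 3 libraries 1.15 (limma-voom adjusted p = 0.00471). The call also depended on the method, since with all 12 libraries kept the edgeR quasi-likelihood test (1.01, adjusted p = 0.0396) and sample quality weights (1.08, limma-voom adjusted p = 0.00663) made it, while DESeq2 (0.93, adjusted p = 0.0393) fell short of the fold threshold. Over all alternatives tried, its adjusted p ran from 0.00471 to 0.177. Calls of higher stability over all genes tested numbered 182 in the main fit. They numbered 572 without ESC total replicate 3, 680 without both ESC replicate 3 libraries, 202 with edgeR and 738 with quality weights.

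Tex19.1 restrains transposons in germ cells and placenta and lies on chromosome 11 at 121146143 to 121148319. Its newly made RNA was at 95.4, 122 and 189 CPM in ESCs and at 23.9, 28.3 and 22.7 CPM in EpiLCs. ESC replicate 3 was the high library, and the nascent change was -2.35 ± 0.25 with it and -2.13 without both ESC replicate 3 libraries. Total RNA was at 67.1, 78.2 and 76.4 CPM in ESCs and at 16.5, 16.6 and 22.5 CPM in EpiLCs, a fall of 4.01-fold (-2.002 ± 0.21, limma-voom adjusted p = 1.05e-06). Its paralog Tex19.2 held at most 30 reads in a library.

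Of the piRNA genes, Tdrd12 fell and Mael rose. TDRD12 is a Tudor-domain protein of piRNA production, the small RNA pathway that silences transposons in the germline, and its gene lies on chromosome 7 at 35469098 to 35537745. Tdrd12 total RNA was at 149.8, 159 and 138 CPM in ESCs and at 23.7, 28.0 and 25.6 CPM in EpiLCs, a fall of 5.77-fold (-2.53 ± 0.12, limma-voom adjusted p = 3.16e-10). Newly made Tdrd12 RNA was at 70.9, 55.4 and 47.4 CPM in ESCs and at 6.39, 7.67 and 9.54 CPM in EpiLCs, a change of -2.89 ± 0.24. Mael, on chromosome 1 at 166201201 to 166238747, encodes an HMG-box protein of the same pathway. Its total RNA was at 9.96, 11.9 and 6.82 CPM in ESCs and at 33.4, 40.5 and 36.1 CPM in EpiLCs. Every EpiLC library lay above every ESC library, and mRNA rose by 1.91 ± 0.15 (limma-voom adjusted p = 5e-08). Newly made Mael RNA, on 8 to 15 reads in ESCs and 24 to 37 in EpiLCs, rose by 1.54 ± 0.41 (limma-voom adjusted p = 0.00561). ESC replicate 3 held the lowest Mael level of both assays, and without both of its libraries the mRNA change was 1.73 and the nascent change 1.47.

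The genes of the meiotic chromosome axis also parted. HORMAD1 marks chromosome axes that have not yet paired, and SYCP3 forms the lateral element of the synaptonemal complex. Hormad1, on chromosome 3 at 95559677 to 95587671, had total RNA at 21.7, 25.9 and 36.3 CPM in ESCs and at 3.36, 4.57 and 3.80 CPM in EpiLCs. Its mRNA fell 6.76-fold (-2.76 ± 0.25, limma-voom adjusted p = 2.87e-07), which is within 1 SE of the fall of Tdrd12. Its newly made RNA went from 32 to 53 reads a library in ESCs to 2, 7 and 4 reads in EpiLCs, and the change of -3.12 ± 0.59 (limma-voom adjusted p = 0.00048) had a wide interval, from -4.37 to -1.86.

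Sycp3, on chromosome 10 at 88459569 to 88473236, was at 11.3, 12.7 and 8.20 CPM in ESC total RNA and at 29.2, 24.9 and 21.4 CPM in EpiLC total RNA. The groups did not overlap, and mRNA rose by 1.18 ± 0.15 (limma-voom adjusted p = 8.08e-06), or by 1.04 without both ESC replicate 3 libraries. Newly made Sycp3 RNA was at 9.66, 12.05 and 8.45 CPM in ESCs and at 12.6, 11.1 and 13.4 CPM in EpiLCs. These groups overlapped, and the nascent change was 0.27 ± 0.26 (limma-voom adjusted p = 0.414; interval -0.29 to 0.82). The difference between its mRNA and nascent changes, 0.92 ± 0.30, did not pass the test (interaction, limma-voom adjusted p = 0.092; interval 0.27 to 1.56). Without both ESC replicate 3 libraries it was 0.89 (limma-voom adjusted p = 0.019), past the adjusted p but not the fold threshold. An exon of Chpt1 overlaps Sycp3 on the opposite strand, and the reads were counted by strand.

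**Figure D2:**
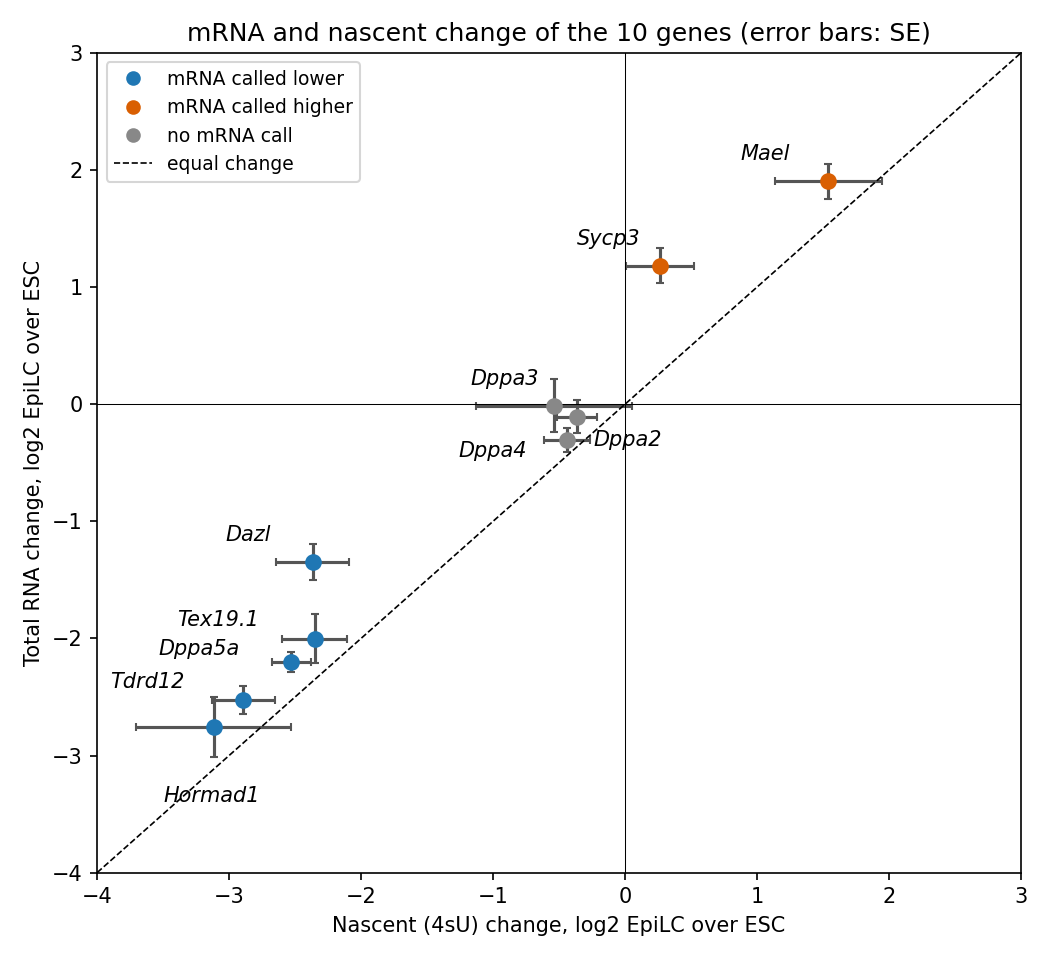
Change in total RNA (vertical axis) against change in nascent 4sU RNA (horizontal axis), both log2 EpiLC over ESC, for the 10 genes with error bars of 1 SE from limma-voom (n = 3 a group). Points are coloured by the mRNA call and the dashed line marks equal change. All 10 points lie above the line, with Dazl and Sycp3 farthest from it at 1.02 and 0.92.

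No stability change was called for any of the 10 genes by limma-voom, where 0.305% of genes tested were called lower and 1.24% higher, and at an unadjusted p below 0.05 there were 2, Dazl and Sycp3, against 22.9% of all genes tested. The 10 estimates were all above 0, as were 60.9% of all genes tested, with a median of 0.36 against 0.11 for all genes tested. Those of the other 8 genes were 0.14 to 0.53, with limma-voom adjusted p of 0.268 or more. The values compare genes within a library and give no absolute half-life, since TMM scaling sets the centre of every library. Over all genes, 182 were called higher and 45 lower with the main scaling and 132 and 66 with median-of-ratios scaling. The edgeR quasi-likelihood test called 1 of the 10, Dazl, and DESeq2 called 0.

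Relative stability itself spread widely among the 10 genes. In ESCs the fitted ratio of total to 4sU RNA was highest for Dppa5a, at 2.57 ± 0.09 (SE), which was percentile 98.4 of the genes tested, followed by Mael at 1.97 ± 0.36, Dppa3 at 1.70 ± 0.40, Hormad1 at 1.51 ± 0.24, Tdrd12 at 1.37 ± 0.12 and Dppa4 at 1.28 ± 0.13. Sycp3 at 0.10 ± 0.22 and Dazl at 0.01 ± 0.14 lay next to the median of 0.03 over all genes. Tex19.1 at -0.81 ± 0.18 and Dppa2 at -1.24 ± 0.14 lay below it, at percentiles 30.8 and 23.7. In EpiLCs Dppa5a was again the highest, at 2.90 ± 0.14, and Dppa2 again the lowest, at -0.99 ± 0.15. Dazl stood at 1.03 ± 0.28, percentile 76.0, against percentile 49.3 in ESCs. Sycp3 stood at 1.02 ± 0.21, percentile 75.7, against percentile 51.8 in ESCs. The 3 EpiLC cultures lay wholly above the 3 ESC cultures for 4 genes, Dppa2, Dazl, Sycp3 and Mael, against 21.4% of all genes tested.

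**Figure D3:**
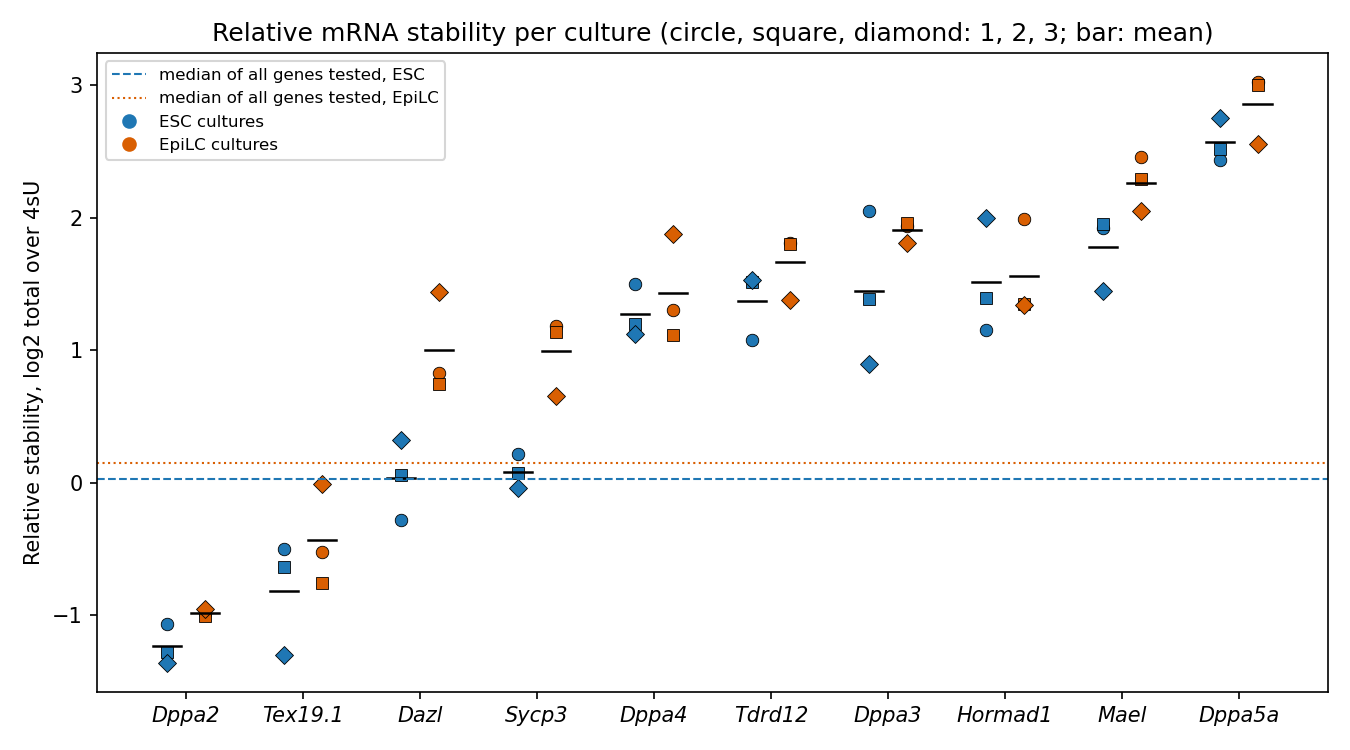
Relative mRNA stability (log2 of total over 4sU CPM) of each gene in the 3 ESC and 3 EpiLC cultures, ordered by the ESC mean. Symbols are cultures 1, 2 and 3, bars are means and the horizontal lines are the medians over all genes tested. The genes run from Dppa2 at about -1.24 in ESCs to Dppa5a at 2.57, and all 3 EpiLC cultures lie above all 3 ESC cultures for Dppa2, Dazl, Sycp3 and Mael.

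The order of levels per length changed between the cell types. In ESC total RNA it was Dppa5a at 1115 ± 31.1 RPKM (SD, n = 3), Dppa4 at 48.3, Tex19.1 at 42.3, Tdrd12 at 36.5, Hormad1 at 16.2, Dppa2 at 13.5, Dazl at 8.97, Sycp3 at 8.49, Dppa3 at 6.09 and Mael at 5.51 RPKM. Neighbours overlapped across libraries from Dppa4 through Tdrd12, between Hormad1 and Dppa2, and from Dazl through Mael. In EpiLC total RNA Mael at 21.2 ± 2.06 and Sycp3 at 19.9 ± 3.08 RPKM came next after Dppa5a and Dppa4 and overlapped each other. They were followed by Dppa2 at 12.7, Tex19.1 at 10.6, Tdrd12 at 6.31, Dppa3 at 5.68, Dazl at 3.43 and Hormad1 at 2.26 RPKM, where Dppa2 overlapped Tex19.1 and Tdrd12 overlapped Dppa3. Mael went from percentile 42.5 of the genes tested to 73.4, and Hormad1 from 65.9 to 27.0.

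The promoter letters printed above are set here beside the direction of the mRNA change. Of the 3 genes with both an E-box and an E2F motif, Hormad1 fell while Sycp3 and Mael rose. Tex19.1, with the E2F motif alone, fell, and of the 2 with no match, Dazl and Tdrd12, both fell. With 6 windows no relation between motif and direction could be tested.

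Other germline genes moved both ways as well. Over the 8 lists that follow, 13 of the 24 called higher passed the low-value filter through EpiLC libraries alone and 7 of the 28 called lower through ESC libraries alone, so these had to differ, and the counts and medians of the lists are descriptions. For comparison with each list, 16.3% of all genes tested were called higher and 11.2% lower in mRNA, with a median change of 0.02. Of 29 genes of the meiotic chromosome, 20 were tested, 6 were higher and 2 lower in EpiLC mRNA, and the median change was 0.26. Sycp2, the partner of SYCP3 in the lateral element, went from 7 to 8 reads a total library in ESCs to 43 to 60 in EpiLCs, a change of 3.39 ± 0.32, and passed the filter through EpiLCs alone. Terb1, which ties telomeres to the nuclear envelope, changed by 3.31 and also passed through EpiLCs alone, and 4930447C04Rik, also known as Six6os1 and part of the central element, changed by 2.72. Rec114, needed for meiotic DNA breaks, went from 290 to 359 reads to 0 to 7 reads and passed through ESCs alone.

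Of 19 further piRNA genes 12 were tested, 5 higher and 4 lower, with a median of -0.14. The 4 that changed most encode Tudor-domain proteins, as Tdrd12 does. Tdrd1 rose by 5.01 ± 0.36 from 3 to 17 reads a total library to 125 to 188, Tdrd5 by 3.19, Tdrkh by 2.95 and Tdrd7 by 2.47, and all 4 passed the filter through EpiLC libraries alone. The 4 called lower, named after their values were seen, were Fkbp6 (-1.63), Gpat2 (-1.35), Pld6 (-1.34) and the Tudor-domain gene Rnf17 (-1.18). Of these, Pld6 passed through ESC libraries alone and the others within both cell types. Of the untested Tudor genes in the list, singled out after their values were seen, Tdrd9 went from 15 to 22 to 3 to 7 reads and Tdrd6 from at most 2 to 20 to 30 reads a total library.

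A list of 29 genes known as germline genes under methylation or PRC1.6 shares 4930447C04Rik with the meiotic list. Of the other 28, 18 were tested, 7 were lower and 5 higher, with a median of -0.80. Tex14, a component of germ cell bridges, changed by -4.16 ± 0.19, Hsf2bp, a meiotic recombination factor, by -3.20 and Tuba3a, a testis tubulin, by -2.99, while Rbm46, a germ cell RNA-binding protein, changed by 3.03 and passed through EpiLCs alone. Ddx4, the germ cell helicase also called Vasa, was singled out after its values were seen, and went from 14.6 ± 3.16 to 60.1 ± 2.53 CPM in total RNA. Within the 7 germ cell markers fixed for the check, 2 of 5 tested were higher in mRNA and none lower by limma-voom. Their summed level was 57.7 to 67.9 CPM in ESC and 97.7 to 104 CPM in EpiLC total libraries, of which Ddx4 was the greatest part in EpiLCs. Of the markers not tested, Stra8 went from 27 to 145 reads a total library in ESCs to 2 to 4 in EpiLCs. Nanos2 went from 1 to 4 reads to 0. The part of any germ cell in these values was not tested.

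**Figure D4:**
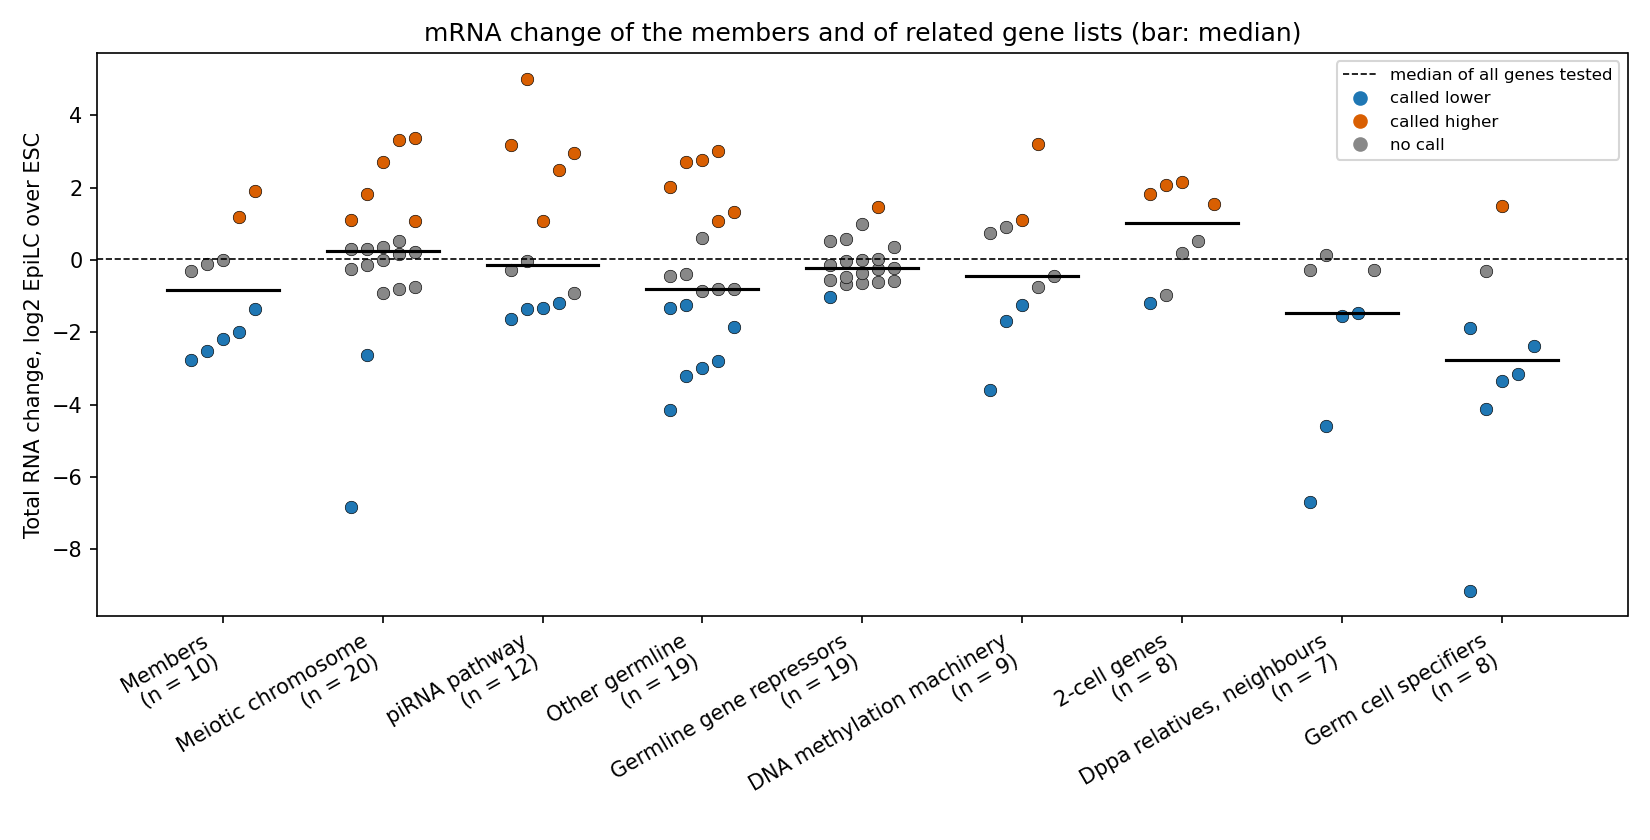
mRNA change (log2 EpiLC over ESC) of the 10 genes and of each tested gene of 8 related lists, where bars are medians and the dashed line is the median of all genes tested (0.02). Genes called lower and higher by limma-voom are coloured. Each of the 3 germline lists holds genes called in both directions. The lowest median, -2.77, is that of the list labelled germ cell specifiers, which also holds markers.

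The PRC1.6 repressors and their partners held 1 gene called higher among 19 tested, Yaf2 at 1.47 ± 0.09, and 1 called lower, Wdr5 at -1.04 ± 0.07, which lost its call without ESC total replicate 3 (-0.999). The median was -0.21. Of the genes whose proteins read the motifs, E2f6 changed by 0.98 ± 0.09 (limma-voom adjusted p = 1.94e-07). Mga changed by -0.21 ± 0.09 (limma-voom adjusted p = 0.0462) and Max by 0.03 ± 0.09 (limma-voom adjusted p = 0.812). None of them passed the fold threshold. In the DNA methylation machinery, 2 of 9 were higher and 3 lower. Dnmt3b, the de novo methyltransferase, rose by 3.20 ± 0.09, while Tet2, which oxidises methylcytosine, fell by 3.60 ± 0.19. Dnmt3l, the cofactor of de novo methylation, fell by 1.68 and Uhrf1, which recruits the maintenance enzyme, by 1.24. The other gene called higher was Dnmt3a, which the naming rule did not pick.

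Among 18 2-cell genes that act downstream of Dppa2 and Dppa4, 8 were tested. Of these, 4 were higher, all copies of the Usp17l family (Usp17la at 2.17, Usp17le at 2.08, Usp17lb at 1.81 and Usp17lc at 1.54), on 4 to 20 reads a library in ESC total RNA. Usp17la, Usp17lb and Usp17le passed the low-value filter through EpiLC libraries alone, and Usp17lc only over both cell types together. These near-identical copies are uncertain because only reads that align once were counted. Usp17lc lost its call in 4 of the fits without a single library, ESC total replicate 1 (1.19) or 2 (1.35) and EpiLC total replicate 2 (1.47) or 3 (1.39), and with DESeq2 on all libraries (1.27, adjusted p = 0.0811). The 3 tested Zscan4 genes were not called, and the limit of reads that align once holds for them too. Zscan4a changed by -0.98 ± 0.21 (limma-voom adjusted p = 0.000879), past the adjusted p but not the fold threshold. Zscan4c changed by 0.20 ± 0.19 and Zscan4d by 0.53 ± 0.23. Tmem92, named after its values were seen, was lower at -1.19.

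Of the relatives of Dppa5a and neighbours of Dppa3, 7 of 11 were tested, 4 were called lower by limma-voom, none higher, and the median was -1.47. Ooep, a relative of Dppa5a that acts in the oocyte, changed by -4.59 ± 0.17. Khdc3, another such relative, went from 331 to 454 reads a library in ESC total RNA to 1 to 3 in EpiLCs, a ratio of 119 with a 95% exact interval of 54.5 to 325 for counting error only. It passed the filter through ESC libraries alone. Nanog and Apobec1, both near Dppa3 on chromosome 6, changed by -1.55 ± 0.11 and -1.47 ± 0.26, whereas Dppa3 and the neighbours Gdf3 and Slc2a3 were not called.

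Of 8 genes listed as specifiers or markers of primordial germ cells, 6 were lower and 1 higher, with a median of -2.77. The specifier Prdm1, named after its values were seen, was not called (-0.30 ± 0.25, limma-voom adjusted p = 0.311). Tfap2c changed by -3.35 ± 0.15 and the receptor gene Kit by -3.15 ± 0.21. Prdm14 had at most 1 read and Sox17 at most 2 reads in an EpiLC total library, against at least 503 and 23 reads in ESCs. Both passed the filter through ESC libraries alone. The 1 gene called higher was Kitl, the ligand of KIT, named after its values were seen, and it passed through EpiLC libraries alone.

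The genes most like each of the 10 across the 12 libraries were found by the Pearson correlation of log2 CPM, which largely follows the split between assays and cell types that all libraries share. For Dppa5a they were Ostf1 (0.996) and Helb (0.996), for Tdrd12 Pfkp (0.994) and Tex2 (0.994), and for Mael Cables1 (0.993) and Mapk11 (0.991). For Dppa4 they were Abhd17a (0.993) and Nfs1 (0.990), for Hormad1 Rlbp1 (0.988) and Hk1 (0.987), and for Tex19.1 Tiam2 (0.986) and Abhd6 (0.986). For Dazl they were Dop1b (0.986) and Gpr179 (0.984), for Dppa2 Tlnrd1 (0.983) and Zfp51 (0.981), and for Dppa3 Arl6ip4 (0.981) and Cdr2l (0.981). The nearest genes to Sycp3, Cds1 (0.967) and Npc1 (0.962), were less like it. None of the nearest genes was another of the 10.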

How the data were processed

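The authors trimmed single-end reads with cutadapt 1.14, aligned them to mm10 with STAR 2.5.3a, kept unique alignments and deposited counts per gene from featureCounts 1.5.3, counted by strand. These deposited counts were used as they stand; 92 spike-in entries held 0 reads and were left out. Symbols were taken from GENCODE M21. Groups followed the labels, 3 libraries each, which the study calls biological replicates. The study's methods give limma and a filter of 3 CPM in 3 replicates; here genes reaching 3 CPM in 3 or more libraries were fitted by limma-voom (limma 3.58.1, edgeR 4.0.16, R 4.3.3) after TMM scaling, a choice made here, in a model of 4 group means over all 12 libraries without a replicate block. Stability was the interaction of assay and cell type. RPKM values divided TMM-scaled CPM by the exonic length in the table. Ratios per culture added 0.5 CPM and took 4sU and total libraries by number, which the labels do not tie to a culture. The script was tested on simulated data. From each related list, up to 4 called genes of largest mRNA change were named, and for each of the 10 genes the 2 of highest correlation. The 10 genes, the lists and these rules were chosen with earlier results of these data known. Alternatives were other scalings, filters, edgeR quasi-likelihood, DESeq2 1.42.0, quality weights, blocks and leaving out libraries.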

Additional observations from a re-analysis of the deposited data

Results flagged for a closer look

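Khdc3, a relative of Dppa5a, differed between assays. Its change was larger in total than in nascent RNA, a stability change of -4.28 ± 0.94 (interaction, limma-voom adjusted p = 0.0224). Total RNA held 356, 454 and 331 reads in ESCs and 3, 1 and 2 in EpiLCs, and 4sU RNA held 11, 15 and 6 reads in ESCs and 2, 1 and 1 in EpiLCs. The ESC-to-EpiLC ratio was 119 in total RNA (95% exact interval 54.5 to 325) and 6.96 in 4sU RNA (2.47 to 27.1), for counting error only. The gene passed the low-value filter through the ESC total libraries alone, so it was selected by values that make this change negative. The estimate is therefore a description. Over all genes tested, 0.305% were called lower in stability. When a single library was left out it could be fitted 9 times and was called 4 times, with limma-voom adjusted p between 0.0332 and 0.0765.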

How the results depend on the processing

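The 5 lower and 2 higher mRNA calls and the 5 lower and 1 higher nascent calls among the 10 genes stayed at these numbers under the scalings, filters, tools, weights and left-out libraries tried; on adjusted p alone Dppa4 was also called lower in both. The number of stability changes called higher went from 0 to 1, Dazl, with edgeR quasi-likelihood, with sample quality weights, with a replicate block by number, and without both ESC replicate 3 libraries, while leaving out single libraries gave 0 to 1, the 1 coming without ESC total replicate 3. Over all genes tested, the number called higher rose in these fits too. It was 182 in the main fit and 202, 738, 281, 680 and 572 in these fits, in the order given. Under the replicate block the Dazl stability change was 1.01 (limma-voom adjusted p = 0.0414), and no mRNA or nascent call changed, while with each culture as the replicate block it was 0.99 (limma-voom adjusted p = 0.0399) and not called. Same-numbered libraries did not deviate together between cell types (correlations of -0.13 to -0.0059), did between assays in ESCs (0.21 to 0.46), and less so in EpiLCs (0.023 to 0.092).
The Dppa3 mRNA change turned to 0.080 with library totals, 0.098 with quality weights, 0.028 with the 6 total libraries alone and 0.11 without both ESC replicate 3 libraries, and ran from -0.14 to 0.12 without single libraries, above 0 without ESC total (0.12) or EpiLC total (0.045) replicate 3. The Hormad1 stability change ran from -0.092, without EpiLC 4sU replicate 1, to 0.68. With looser filters 4 rather than 2 meiotic chromosome genes and 2 rather than 1 of the 2-cell genes were lower, as more were tested. An E2F motif of 1 base more matched 2 rather than 4 promoters. With library totals the ESC relative stability of Sycp3 was -0.14 and that of Dppa2 -1.47. Other causes were not tested. Depth limited Dppa3, at 12 4sU reads or fewer a library, and Hormad1, at 7 or fewer in EpiLCs.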
